A study of Mus musculus with 14 samples.

Results

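Mouse intestinal organoids contained cells that carried transcripts of several detoxification enzymes while holding few transcripts of the lipid-absorbing or bile-acid-absorbing enterocyte. They are described here as detoxification-rich early absorptive cells. A cell was a member when it had at least 2 UMIs (unique molecular identifiers, each a captured transcript) of at least 3 of 6 marker genes, Ces1f, Cbr3, Cyp2c66, Gstm3, Ces2e and Fmo5, fewer than 20 summed UMIs of Apoa1, Apoa4 and Rbp2, and fewer than 5 summed UMIs of Fabp6, Slc10a2 and Slc51b. Only cells with 500 genes or more, 1000 UMIs or more and no more than 20% of UMIs from mitochondrial genes could qualify. Members numbered 1914 of the 27324 such cells (7%) in the 3 single-cell libraries made without the compound Isx-9, and made up 5.13% of the 37340 cells kept from all 4 libraries. These 12 genes chose the members, so their levels below are descriptions, and so is every difference between members and other cells.

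Organoids are grown in culture from intestinal stem cells and form a crypt-like and villus-like epithelium. The series title states that Isx-9, an isoxazole small molecule, induces enteroendocrine differentiation, and the libraries set Isx-9 beside its DMSO vehicle. Single cells of whole organoids (10x Genomics) came from untreated wild type (WT) organoids and from Chgb-mCherry knock-in organoids that were untreated, given 0.05% DMSO for 6 days, or given Isx-9 at 25 µM for 6 days, each as 1 library. For bulk RNA-seq, Lgr5-EGFP knock-in organoids were the source of sorted intestinal stem cells, exposed for 6 hours to the same agents, with 2 libraries per agent.

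All groups shared a medium with EGF, Noggin and R-spondin1, which keeps stem cells dividing, and with N-acetylcysteine, an antioxidant and glutathione precursor. Treatment began on day 2 after passaging, and the untreated libraries were not stated to have the same age. The labels give no animal age or sex and do not say which part of the intestine the organoids came from. The Chgb-mCherry allele is a reporter for enteroendocrine cells, and WT was the only library without it. With 1 library per condition, genotype, treatment and library cannot be told apart.

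Intestinal epithelial cells take up foreign compounds with food and chemically disarm them. In the first step, cytochromes P450, flavin monooxygenases, carboxylesterases and carbonyl reductases oxidise, hydrolyse or reduce a compound. In the next, glutathione transferases, UDP-glucuronosyltransferases and sulfotransferases attach a water-soluble group, and ABC transporters export the product. Many of these genes are known targets of the nuclear receptors CAR (Nr1i3) and PXR (Nr1i2), of the oxidative stress factor NRF2 (Nfe2l2), and of HNF4, a transcription factor of absorptive cells. Absorptive cells are produced by dividing progenitors in the crypt and mature as they move up the villus, where brush border hydrolases, nutrient carriers and apolipoproteins accumulate.

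The 6 markers cover the first step and the conjugation step. Ces1f and Ces2e encode carboxylesterases, Cbr3 a carbonyl reductase, Cyp2c66 a cytochrome P450, Fmo5 a flavin monooxygenase and Gstm3 a mu-class glutathione transferase. The promoters of these markers were searched for the letters CAAAGT, a core of HNF4-type sites. The search covered both strands of the 250 bases before each RefSeq start (build GRCm38.p6). The letters occurred in 3 of the 5 markers with a promoter sequence, Gstm3, Cyp2c66 and Ces2e. They occurred in 27 of 105 matched detoxification genes (25.7%, from lists of 130 genes) and in 3385 of 27025 promoters (12.5%). Windows of those 3 markers are shown with those of Ces2a, a carboxylesterase that was also high in members, and Cyp3a11, a drug-oxidising P450 that was very low in members. Each window reads 5′ to 3′ on the gene's strand, and capitals mark CAAAGT or its reverse complement.
Gstm3: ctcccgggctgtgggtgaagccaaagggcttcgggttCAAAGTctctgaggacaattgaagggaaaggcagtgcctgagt
Cyp2c66: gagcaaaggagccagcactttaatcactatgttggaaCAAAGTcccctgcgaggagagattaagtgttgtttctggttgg
Ces2e: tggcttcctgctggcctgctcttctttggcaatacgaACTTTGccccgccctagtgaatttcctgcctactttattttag
Ces2a: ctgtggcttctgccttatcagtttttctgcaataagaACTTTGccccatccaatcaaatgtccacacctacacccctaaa
Cyp3a11: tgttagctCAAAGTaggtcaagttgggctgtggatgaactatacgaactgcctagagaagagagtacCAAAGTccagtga

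The windows lie at chr3:107969265-107969344 on the minus strand for Gstm3, chr19:39113757-39113836 on the plus strand for Cyp2c66, chr8:104926143-104926222 on the plus strand for Ces2e, chr8:104733896-104733975 on the plus strand for Ces2a and chr5:145879951-145880030 on the minus strand for Cyp3a11, all upstream of the start and outside the gene. The match stood 133 to 128 bases before the start in Gstm3, 104 to 99 in Cyp2c66, 80 to 75 in Ces2e and 70 to 65 in Ces2a. Cyp3a11, low in members, had a pair of matches, at 168 to 163 and 109 to 104 bases, so the letters did not separate genes high in members from a gene low in them. The nuclear receptor motif AGGTCA was found in 18 of the 105 detoxification promoters (17.1%, against 13.8% of all promoters), the NRF2-type TGACNNNGC in 7 (6.67% against 10.1%) and the AhR-type GCGTG in 25 (23.8% against 28.2%). None of these 3 motifs was in a marker promoter. A match is a description of letters and not a bound site. Ces1f had no promoter entry.

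The 4 single-cell libraries held 116046871 to 139401464 UMIs in 10830 to 12201 deposited cells, of which 8745 (WT), 9610 (Chgb-mCherry), 8969 (DMSO) and 10016 (Isx-9) were kept. Isx-9 was the shallowest, with a median of 9374 UMIs per kept cell against 12633 to 15007 in the other 3. Members were deeper than the other kept cells of their library. Throughout, 3 values in a row stand for WT, Chgb-mCherry and DMSO. The median member had 19889, 16515 and 17253 UMIs, against 14711, 12295 and 13072 in other cells. Mitochondrial shares were alike, with medians of 6.28%, 6.57% and 6.83% in members and 6.19%, 6.58% and 6.68% elsewhere.

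Scrublet, a doublet caller, marked 1, 0 and 0 cells in the 3 libraries, so it did not work there, and doublets were not removed. Between 32 and 52 cell barcodes were shared by each pair of libraries, and 1 barcode was a member in both Chgb-mCherry and DMSO. Few members carried a full load of secretory-cell transcripts. At least 100 UMIs of a goblet, Paneth, tuft or enteroendocrine list were found in 23, 22 and 23 members, and results that rest on such cells are given with and without them.

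Members made up 5.01% of WT cells (438 cells, exact 95% interval 4.56 to 5.49), 8.48% of Chgb-mCherry cells (815, 7.93 to 9.06) and 7.37% of DMSO cells (661, 6.84 to 7.93). These intervals cover counting error only, and there was no replicate library to test against. In the Isx-9 library 31 cells met the rule, 0.31% (0.21 to 0.439). The DMSO share was 23.8 times the Isx-9 share (16.6 to 35.3). Depth bears on the rule, since it asks for a fixed number of UMIs, so every cell was also thinned to 5000 UMIs and cells below that were left out (1123, 1115, 1065 and 984 in Isx-9). The thinned shares were 1.4% (1.15 to 1.69), 2.93% (2.58 to 3.31) and 2.28% (1.96 to 2.63), and 0 of 9032 Isx-9 cells, where a floor of 3 cells allows a share of up to 0.0332% and the exact 95% interval one of 0.0408%. Against that floor the thinned DMSO share was 68.6 times the Isx-9 share, and the interval of the ratio began at 55.2. The caps were also applied to the thinned counts, so a cell above a cap at full depth could fall under it. The thinned shares thus need not describe the same cells as the shares at full depth. WT stayed the lowest of the 3 control libraries after thinning.

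**Figure D1:**
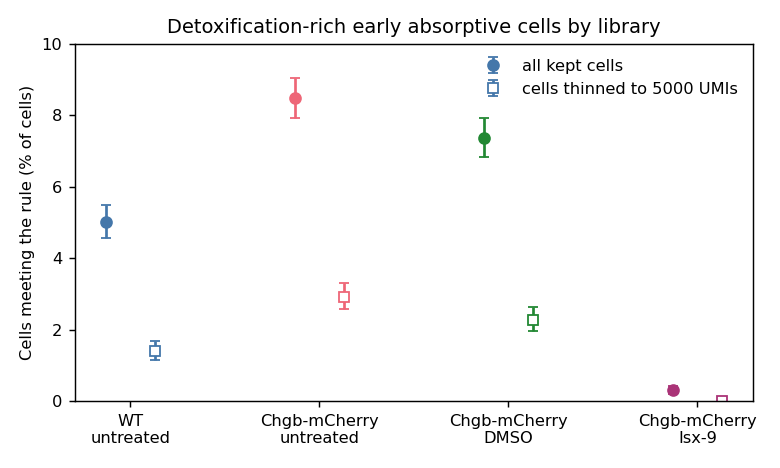
Share of cells meeting the rule (vertical axis, percent of cells) in each library, as deposited (filled circles) and after thinning every cell to 5000 UMIs (open squares); bars are exact 95% binomial intervals. The 3 libraries without Isx-9 lie between 5.01% and 8.48% as deposited, and Isx-9 lies at 0.31%.

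A strict cut left the order of the libraries as it was but not the size of the population. Asking for 3 UMIs per marker gave 2.62%, 4.14% and 3.39%, asking for 2 markers gave 12.3%, 18.2% and 16.8%, and asking for 4 gave 2.23%, 3.84% and 3.16%. Just inside the rule, 243, 446 and 378 members had exactly 3 markers, and just outside it 636, 936 and 850 cells under both caps had exactly 2. Levels are given as CPM, the UMIs of a gene per 1000000 UMIs of the cells described. Ces1f was at 35.5, 54.5 and 42.4 CPM with exactly 3 markers and at 14.9, 21 and 17.9 with exactly 2. Cbr3 was at 214, 169 and 167 with exactly 3 and at 81.7, 87.9 and 79.2 with exactly 2. In cells with 0 or 1 marker, Ces1f was at 2.57, 5.88 and 4.73. These cells were sorted by counts of the same markers, so the fall in marker level was set by the sorting. At the apolipoprotein cap, Ces1f was at 118, 186 and 193 in members with 15 to 19 summed UMIs (26, 50 and 50 cells) and at 146, 251 and 245 in cells with 3 markers or more and 20 to 24 summed UMIs (15, 46 and 35 cells).

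Most members met the rule through the same genes. All 6 markers were present in 29, 52 and 34 members (6.62%, 6.38% and 5.14%), and exactly 3 in 55.5%, 54.7% and 57.2%. The trio Cbr3, Gstm3 and Ces2e alone admitted 25.8%, 25.9% and 25.1% of members. Ces2e had at least 2 UMIs in 90.9%, 92.4% and 91.7% of members, Gstm3 in 83.3%, 84.7% and 84.4%, and Cbr3 in 81.3%, 80.2% and 76.7%. Fmo5, Ces1f and Cyp2c66 were met less often, in 45.4%, 39.5% and 45.1%, in 42.5%, 49% and 43.7%, and in 28.8%, 25.2% and 24.4%. The 3 libraries gave nearly the same make-up.

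Members were set beside 3 other classes of the same libraries. Apolipoprotein-high cells, lipid-absorbing enterocytes by their genes, had at least 20 summed UMIs of Apoa1, Apoa4 and Rbp2 under the ileal cap (289, 535 and 576 cells). Ileal-type cells had at least 5 summed UMIs of Fabp6, Slc10a2 and Slc51b, which handle bile acids (305, 35 and 43 cells). Lgr5 Olfm4 stem cells lay under both caps and had at least 1 Lgr5 and 5 Olfm4 UMIs. They had fewer than 3 markers and fewer than 2 summed UMIs of the mitosis genes Mki67 and Top2a (1301, 1410 and 1632 cells). For the last class, proliferation genes were therefore low by definition.

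Each marker stood between the stem class and the apolipoprotein-high class in every library, on the CPM scale. Ces1f was at 82.1, 102 and 87 in members, 2.8, 6.86 and 4.33 in stem cells and 161, 229 and 235 in apolipoprotein-high cells. Cbr3 was at 264, 233 and 216 in members, 15.4, 27.4 and 22.2 in stem cells and 302, 364 and 381 in apolipoprotein-high cells. Of the 6, Cbr3 came nearest to the apolipoprotein-high level, at 0.874, 0.64 and 0.567 of it. Cyp2c66 was at 49, 49.2 and 50.6 in members against 127, 168 and 159 in apolipoprotein-high cells. Gstm3 was at 215, 249 and 236 against 533, 708 and 644. The remaining markers showed the same order. Ces2e was at 220, 229 and 218 in members and 472, 512 and 564 in apolipoprotein-high cells, and Fmo5 at 83.4, 83.3 and 87.4 and 246, 275 and 271. Stem cells held Ces2e at 58.4, 82.4 and 72.6, the least distant of the 6 genes from members, who had 3.77, 2.78 and 3 times as much.

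**Figure D2:**
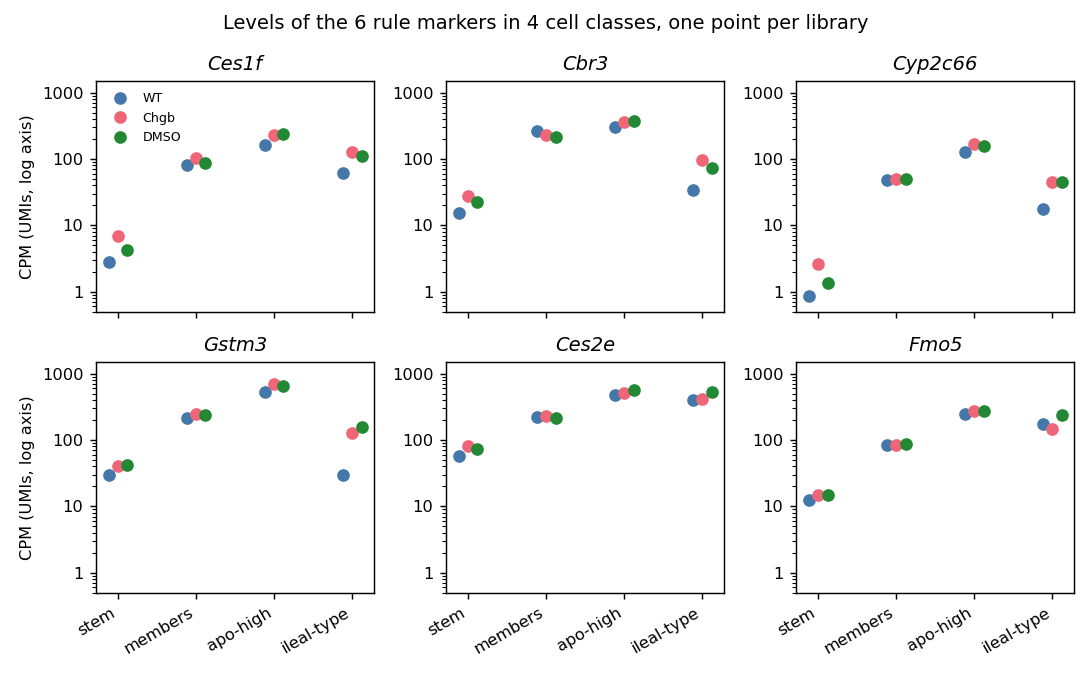
Level of each rule marker (vertical axis, CPM, log axis) in stem, member, apolipoprotein-high and ileal-type cells, one point per library. Every marker is higher in members than in stem cells and lower than in apolipoprotein-high cells in all 3 libraries, as with Ces1f at 82.1 to 102, 2.8 to 6.86 and 161 to 235.

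The ileal-type class differed from members in which markers it held. Its Cbr3 was at 34.6, 96.5 and 73.6 CPM and its Gstm3 at 29.9, 128 and 156, below the members. Its Ces2e was at 398, 415 and 535 and its Fmo5 at 175, 145 and 239, above them. The capped genes were low in members by the rule. Rbp2, which carries retinol, was at 138, 196 and 179, Apoa1 at 28.7, 35.1 and 50.1, Apoa4 at 9.16, 16.6 and 21.2, and Fabp6 at 4.48, 2.52 and 2.24. In 114, 155 and 133 members the 3 capped apolipoprotein and retinol genes summed to 0, and in 350, 744 and 600 the ileal genes did.

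The name early absorptive cell was checked against enterocyte and stem markers. Fabp1, a fatty acid carrier of enterocytes, was at 580, 475 and 434 CPM in members, 8000, 6441 and 7760 in apolipoprotein-high cells and 11.7, 17.3 and 23.7 in stem cells. Alpi, the brush border alkaline phosphatase, was at 80.3, 46.6 and 41.2 in members, 319, 179 and 195 in apolipoprotein-high cells and 2.55, 3.43 and 2.26 in stem cells. Sis, the sucrase-isomaltase, was at 97.2, 85.2 and 113, against 1103, 883 and 1028 and against 19.5, 10.4 and 9.22. Enterocyte genes were thus present in members at a small part of the apolipoprotein-high level. Krt20, a keratin of mature villus cells, was at 28.2, 16.2 and 18.1, against 11.4, 3.43 and 4.98 in stem cells and 210, 167 and 193 in apolipoprotein-high cells. Lct, the lactase of mature enterocytes, was near 0 in members (0.213, 0 and 0.0801) and low in apolipoprotein-high cells too (3.81, 1.23 and 3.47).

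Stem cell transcripts were lower in members than in stem cells but present. Lgr5, the R-spondin receptor that marks stem cells, was at 88.9, 81.8 and 101 in members, 246, 236 and 240 in stem cells, which were chosen on it, and 41.7, 29.7 and 34.4 in apolipoprotein-high cells. Ascl2, a stem cell transcription factor, was at 18.1, 13.3 and 14.8 in members and 63.2, 47.1 and 46.6 in stem cells. Mki67, a gene of dividing cells, was at 166, 174 and 145 in members, 62.3, 45 and 42.7 in apolipoprotein-high cells and 178, 182 and 166 in all other kept cells. Olfm4, which also chose the stem class, was at 552, 613 and 817 CPM in members and had a UMI in 61.2%, 64.8% and 70.2% of them. The markers printed here fit an absorptive cell that is not mature, so the label is kept. Of the brush border list as a whole, 5 of 21 genes were at least 2-fold higher than in stem cells. Ptprc, the pan-leukocyte gene, was at 0 in the members of all 3 libraries.

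Summed markers of secretory cell types were lower in members than in the other kept cells, which include those cell types themselves. All 15 of 15 goblet markers were seen, summing to 1855, 868 and 897 CPM in members and 4904, 4466 and 4659 in other cells. Paneth markers summed to 2090, 1066 and 870, against 5684, 5888 and 6628, with Mptx2 at 0. Enteroendocrine markers summed to 595, 484 and 676, against 3382, 3145 and 2735, and tuft markers to 8.95, 20.9 and 20.8, against 149, 137 and 135. These sums rested in part on single cells, such as a WT member with 5183 Paneth UMIs. Without members rich in secretory transcripts the Paneth gene Defa24 was at 148, 153 and 150, against 1176, 576 and 393 with them. The typical member held slightly more Paneth UMIs than the typical other cell, with medians of 7.5, 7 and 7 against 6, 5 and 5. At least 10 Paneth UMIs were found in 36.5%, 30.3% and 32.5% of members, which were deeper, and in 27.7%, 24% and 25.1% of other cells. The part of free RNA or doublets in these values was not tested.

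Against stem cells, 383 of 10631 genes were at least 2-fold higher in members in all 3 libraries (3.6%) and 161 at least 2-fold lower (1.51%), with a median over all genes of -0.02 on the log2 scale. The rule used this contrast, so these counts describe the cells and are no test. With a low-count filter of 10 UMIs in place of 50, the lower count was 275. Detoxification genes outside the rule were described list by list.

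Among carboxylesterases, 3 of 6 genes were higher than in stem cells and 0 lower, with a list median of 1.36. Ces2a was at 170, 264 and 296 CPM in members and 25.6, 38.2 and 36.7 in stem cells, a median log2 difference of 2.79. Ces2c, which like Ces2a hydrolyses ester drugs, was at 81, 88.7 and 90.4 against 12.9, 17.6 and 17.2. Among cytochromes P450 and their partner, 6 of 16 were higher, with a median of 0.95. Cyp2c55 was at 44.8, 31.7 and 34.2 against 4.55, 5 and 4.15, and Cyp4f14, a fatty acid hydroxylase, at 77.4, 76.6 and 74.5 against 18.9, 19.2 and 16.2. Cyp3a13 was at 36.9, 17.4 and 20.7 against 4.9, 3.15 and 4.1. Members stood above stem cells in each of these genes in all 3 libraries. Ces2, Cyp2c, Gstm and Ugt2b genes belong to families of similar copies, and how shared reads were split is not given in the sources used here.

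Carbonyl, alcohol and aldehyde enzymes had 7 of 20 genes higher (median 0.55). Adh6a, an alcohol dehydrogenase, was at 40.3, 32.5 and 30.4 CPM in members against 4.85, 3.09 and 2.49 in stem cells. Akr1b8, an aldo-keto reductase, was at 73.2, 52.6 and 51.5 against 4.85, 7.65 and 6.82. Aldh1a1, which makes retinoic acid, was at 43.9, 75.9 and 77.9 against 7.64, 11.1 and 10.9. In this list the differences reached a median log2 of 3.39 for Adh6a. Of the oxidases, 3 of 6 were higher (median 1.28), led by Maoa, a monoamine oxidase, at 158, 157 and 161 against 48.2, 48.1 and 44.3.

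Conjugating enzymes followed. Glutathione transferases had 9 of 20 genes higher and 0 lower (median 0.91). Gsta1, an alpha-class transferase, was at 302, 322 and 300 CPM in members and 14.8, 18.2 and 24.5 in stem cells, with a median log2 difference of 4.14. Gsta4, which clears lipid peroxidation products, was at 414, 351 and 309 against 125, 113 and 112. In both genes members stood above stem cells in all 3 libraries. Glucuronosyl and sulfotransferases had 10 of 18 higher (median 1.18). Ugt2b5 was at 7.88, 16.9 and 15 against 0.899, 1.12 and 0.645, and the sulfotransferase Sult1d1 at 151, 141 and 132 against 43.4, 47 and 39.9. Of the drug export genes, 2 of 8 were higher (median 0.26): Abcc2, an apical conjugate exporter, at 62.2, 63.4 and 66.2 against 11.8, 20 and 19.4, and Abcc3, a basolateral one, at 32.9, 29.5 and 28.6 against 12.2, 10.5 and 11.1.

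Known regulators of these genes were mostly near the stem level. In the list of receptors and factors 4 of 29 were higher (median 0.35). Nr1i3, the receptor CAR, was at 17.8, 19.6 and 18.3 CPM in members, 3.6, 5.34 and 4.61 in stem cells and 57.6, 58.9 and 63.8 in apolipoprotein-high cells. Nr1i2, the receptor PXR, was at 18.4, 15.5 and 16.8 in members, 14.3, 13.7 and 12.7 in stem cells and 23.5, 22 and 24.9 in apolipoprotein-high cells. CAR transcripts thus followed the markers' order with a wide step, and PXR transcripts with a narrow one. Ahr, the dioxin receptor, was at 11.6, 11.5 and 11.9 in members and 9.04, 9.67 and 11.4 in stem cells. Nfe2l2, which encodes NRF2, was at 189, 159 and 139 in members, 100, 99.2 and 92.5 in stem cells and 209, 186 and 178 in apolipoprotein-high cells. Hnf4a was at 119, 108 and 116 in members, 95.7, 84.7 and 90.6 in stem cells and 119, 118 and 126 in apolipoprotein-high cells, a narrow range. Creb3l3, a factor of lipid metabolism, spanned a much wider one, with 7.46, 9.15 and 9.86 in members, 0.35, 0.281 and 0.968 in stem cells and 157, 162 and 190 in apolipoprotein-high cells.

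NRF2 target genes had 7 of 18 members higher than in stem cells and 0 lower (median 0.70). Me1, the malic enzyme that supplies NADPH, was at 31.9, 30.2 and 29.5 CPM against 3.9, 4.1 and 4.01. Nqo1, a quinone reductase, was at 41.1, 45.5 and 46.8 against 8.89, 12.8 and 12.1. Slc7a11, the cystine carrier that feeds glutathione synthesis, was at 21.3, 17.2 and 16.5 against 5.4, 6.13 and 5.16. Several genes outside these lists differed by more. Cfhr2, a complement factor H-related gene, was at 13.3, 18.6 and 19.3 against 0.3, 0.506 and 0.783, and St3gal4, a sialyltransferase, at 121, 112 and 117 against 6.69, 5 and 7. Nat8, an N-acetyltransferase that acts on cysteine conjugates, was at 6.39, 5.37 and 6.73 against 0.35, 0.225 and 0.277. Pif1 and Nusap1, genes of dividing cells, were also among the highest, in a contrast with a class that was chosen to be non-cycling.

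Enterocyte programmes were partly present. Of brush border genes, 5 of 21 were higher than in stem cells (median 0.41), with Alpi at a median log2 difference of 4.19 and the aminopeptidase Enpep at 3.98. Nutrient transport genes had 6 of 17 higher (median 0.77), led by the anion exchanger Slc26a6 at 3.19 and the amino acid carrier Slc6a19 at 2.79. Lipid absorption genes had 9 of 22 higher and 1 lower (median 1.02), with Fabp1 at 4.78, the cholesterol carrier Npc1l1 at 2.38 and the triglyceride enzyme Mogat2 at 2.23. Stem cell markers had 10 of 17 lower (median -1.36). Among these, Gkn3 differed by -2.31, Ascl2 by -1.80, Msi1, an RNA-binding protein, by -1.80, and Clca3b, a calcium-activated chloride channel regulator, by -1.70.

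Against apolipoprotein-high cells, 336 of 9659 genes were at least 2-fold higher in members in all 3 libraries (3.48%) and 422 at least 2-fold lower (4.37%), with a median over all genes of 0.18 on the log2 scale. The rule used this contrast too. Scaling by the median ratio instead gave 204 higher and 556 lower genes, and leaving out WT gave 811 higher. Differences below are therefore best read against that 0.18.

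The P450 genes were the detoxification list with the largest share lower, 17 of 19 (median -1.75). Cyp3a11, the main intestinal drug-oxidising P450, was at 0.746, 1.26 and 2 CPM in members and 93.4, 92.7 and 135 in apolipoprotein-high cells. Cyp2b10, the standard CAR target, was at 2.88, 3.84 and 3.85 against 66.7, 94.2 and 83.1. Cyp3a25 was at 1.49, 2.98 and 3.61 against 26.4, 44.5 and 50.8. These P450 genes were nearly missing from members. In the remaining detoxification lists fewer genes were lower and 0 higher: 3 of 6 carboxylesterases (median -1.35), 7 of 22 carbonyl, alcohol and aldehyde enzymes (-0.76), 5 of 6 oxidases (-1.62), 7 of 20 glutathione transferases (-0.76), 7 of 18 glucuronosyl and sulfotransferases (-0.71) and 2 of 7 exporters (-0.74). Gsta1 was at 2008, 2004 and 2333 in apolipoprotein-high cells, a median log2 difference of -2.73. Ces2a was at 589, 1024 and 1128 there, a difference of -1.93, and Abcg2, an apical drug efflux pump, at 87.1, 88.3 and 90.3 against 39.6, 39.7 and 44.6 in members. Of the NRF2 targets 1 of 18 was lower (median -0.16), Osgin1 with -1.62.

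Detoxification genes outside the rule differed widely in how much of the apolipoprotein-high level members held. The 96 genes assessed had at least 50 UMIs in apolipoprotein-high cells of each library, a filter that lets in genes high there and drops genes low there, so the counts only describe these genes. Of them, 41 were at 50% or more of it in all 3 libraries, 5 were under 10% in all 3, and 50 lay between. These cuts were not counted over all genes. Of the 9659 genes compared, 4.37% were at least 2-fold lower in all 3 libraries, so a typical gene was not lower in members. The 5 under 10% were Cyp3a11 (0.799%, 1.36% and 1.48%), Cyp2b10 (4.31%, 4.08% and 4.63%), Cyp3a25 (5.64%, 6.7% and 7.1%), the alcohol dehydrogenase Adh4 (9.51%, 6.86% and 7.17%) and the aldose reductase-like Akr1b7 (6.4%, 3.78% and 5.34%). At the high end, Gsta3, an alpha-class transferase, was at 204, 196 and 203 CPM in members and 181, 239 and 252 in apolipoprotein-high cells, or 113%, 82% and 80.6%. Cbr1, a carbonyl reductase, was at 526, 521 and 501 against 684, 841 and 844, or 76.9%, 61.9% and 59.3%. Both stood well above stem cells, which held Gsta3 at 53, 73.5 and 67 and Cbr1 at 138, 186 and 173. Akr1b8 was at 88.3%, 58.9% and 68.5%, and Sult1c2, a sulfotransferase, at 89.7%, 78.8% and 99.5%. Close relatives could part: Gsta1 was at 15%, 16.1% and 12.9%, and Cyp2c65 at 47.5%, 43.9% and 45.1%, far from the Cyp3a genes. In 6 genes all 3 libraries were at 100% or more, with medians for Abcc1 of 167%, Akr1b3 of 147%, Aldh1b1 of 135%, Gstt2 of 126%, Tpmt of 117% and Adh5 of 105%.

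**Figure D3:**
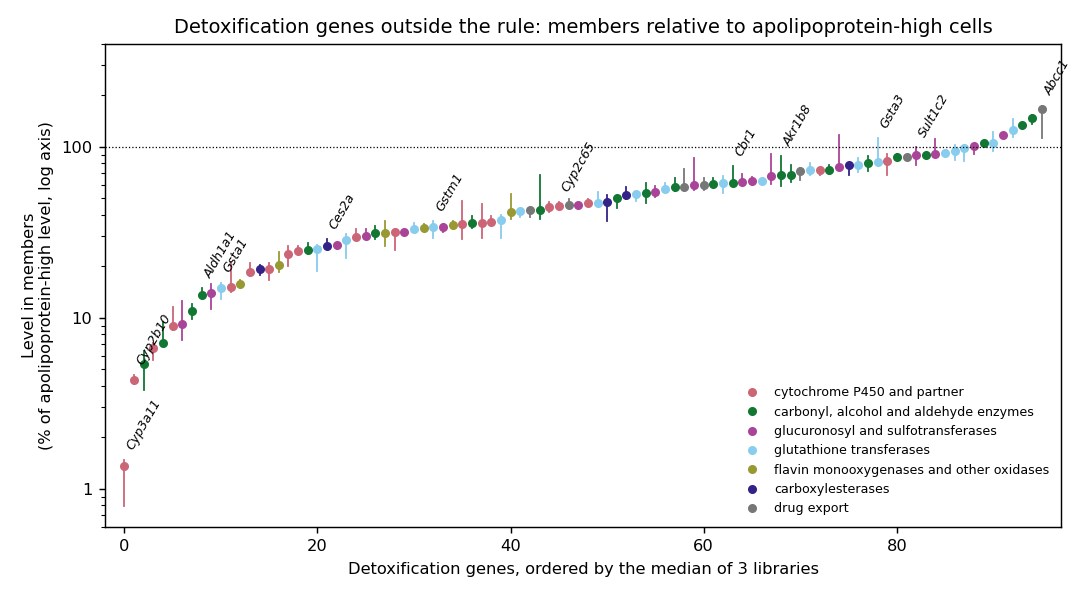
Level of each detoxification gene in members as a percent of its level in apolipoprotein-high cells (vertical axis, log axis); points are the median of WT, Chgb-mCherry and DMSO, lines their range, colours the gene lists, and the dotted line equal levels. Cyp3a11 lies lowest, at about 1 percent, and Abcc1 highest.

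Mature enterocyte genes were also lower in members. Of brush border genes, 16 of 23 were lower (median -1.68), with Ggt1, which cleaves glutathione outside the cell, at 2.34, 3.18 and 4.41 CPM against 84.2, 101 and 125. Of nutrient transport genes, 10 of 20 were lower (median -1.64), with Slc2a2, the basolateral glucose carrier, at 1.81, 2.52 and 2.4 against 72.8, 54.8 and 56.4. Of lipid absorption genes, 16 of 22 were lower (median -1.98), with Apoc3 at 12.7, 18.9 and 24.3 against 605, 640 and 722. The capped genes belong to that programme, so its direction was set in part by the rule. Reg1, a lectin of the lower villus, was at 5.65, 4.18 and 7.53 against 1784, 1091 and 1893, a median log2 difference of -8.03, and 7 of 12 genes of that region were lower. Gip, an incretin hormone, was at 2.34, 9.01 and 18.8 in members and 1730, 887 and 3202 in apolipoprotein-high cells. In that class 4.5%, 2.62% and 3.82% of cells held at least 10 UMIs of the enteroendocrine list, with up to 8865, 3717 and 4967 in 1 cell and a median of 1.

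Proliferation genes were higher in members than in apolipoprotein-high cells in 23 of 30 cases (median 1.78). Top2a was at 194, 203 and 178 CPM against 71.7, 47.1 and 46.3. Mcm3, part of the replication helicase, was at 47.4, 48.7 and 48.8 against 20.6, 10.3 and 11.1. Kif2c, a mitotic kinesin, was at 17.2, 17.2 and 17.2 against 4.26, 4.55 and 4.63. Of the stem cell markers, 2 of 18 were higher (median 1.10): Slc12a2, a chloride carrier of the crypt, at 240, 233 and 259 against 104, 68.8 and 78.5, and Lgr5 with a median log2 difference of 1.46.

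Against ileal-type cells, 419 of 9384 genes were at least 2-fold higher in members in all 3 libraries (4.47%) and 423 at least 2-fold lower (4.51%), with a median over all genes of 0.11. Without WT the higher count was 714, and Chgb-mCherry and DMSO gave only 35 and 43 ileal-type cells. Of the detoxification lists, 1 of 5 carboxylesterases (median -0.11), 1 of 20 glutathione transferases (0.25), 3 of 20 carbonyl, alcohol and aldehyde enzymes (0.09), 9 of 18 P450 genes (-1.36) and 3 of 7 exporters (-0.81) were lower. The injury-like and fetal-like list had 15 of 17 genes lower in members (median -3.05). Anxa1, an annexin of that list, was at 8.63, 5.83 and 2.56 CPM against 174, 415 and 116, and Ly6d at 6.5, 7.56 and 0.24 against 301, 610 and 282. Of the duodenal and proximal list 3 of 9 genes were higher and 3 lower (median 0.67). Onecut2, a factor of the proximal intestine, was at 150, 149 and 138 in members and 12.6, 25.9 and 59.4 in ileal-type cells, and Gata4, also proximal, at 29.7, 31.7 and 33.4 against 2.56, 12.1 and 19.8. In the other direction, Adh6a was at 40.3, 32.5 and 30.4 against 90.3, 157 and 177, and S100g, a calcium-binding protein, at 59.6, 62.6 and 74.5 against 225, 596 and 231. Apobec3, a cytidine deaminase of antiviral defence, was at 24, 36.4 and 36.4 against 6.1, 8.62 and 8.49. Proliferation genes were higher in 26 of 30 cases (median 1.82).

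Kept cells under the ileal cap, with or without the markers, were next ordered by their summed Apoa1, Apoa4 and Rbp2 UMIs. The share of cells with at least 3 markers was 1.96%, 2.97% and 2.78% where the sum was 0 (5808, 5212 and 4791 cells), 44.5%, 47.6% and 45.5% at 5 to 9 UMIs (146, 355 and 279 cells) and 76.9%, 93.6% and 96.5% at 200 or more (39, 78 and 113 cells). Detoxification genes differed in how much of their top-bin level they reached at lower sums. Cbr3 at 5 to 9 UMIs stood at 54.3%, 36.8% and 31.3% of its level in the top bin, Ces1f at 39.9%, 24.3% and 23.7%, and Gsta1 at 9.83%, 6.7% and 5.53%. Fabp1 stood at 4.73%, 2.7% and 2.82%, Cyp2b10 at 2.95%, 1.94% and 1.2%, and Cyp3a11 at 1.47%, 1.23% and 0.372%. The order of these genes was the same in the 3 libraries. At 20 to 49 UMIs Cbr3 stood at 71.5%, 73.8% and 50.6%, Gsta1 at 30.2%, 23.7% and 20.3% and Cyp3a11 at 11.6%, 9.63% and 7.98%. Olfm4, a stem cell gene, was at 1793, 2364 and 2726 CPM at a sum of 0 and at 525, 383 and 581 at 5 to 9. Hnf4a stayed between 94.5 and 136 over all bins of the 3 libraries. This order is one of UMIs and not of time. Median depth did not follow it steadily, and was 16184, 14604 and 15367 UMIs at 5 to 9 and 22229, 19186 and 20309 in the top bin.

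**Figure D4:**
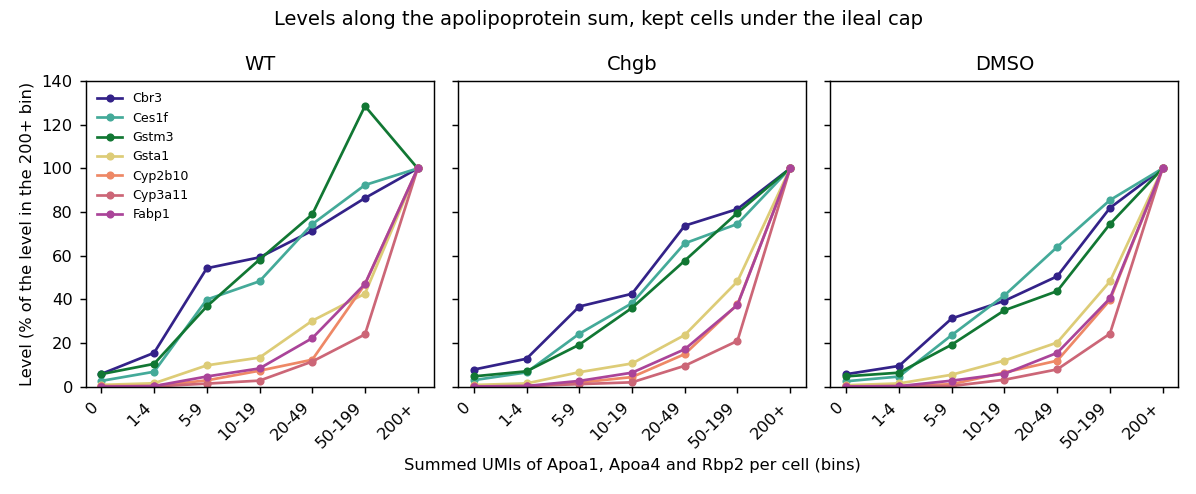
Level of 7 genes (vertical axis, percent of the level in the bin of 200 or more) by bins of the summed UMIs of Apoa1, Apoa4 and Rbp2 (horizontal axis) in kept cells under the ileal cap, one panel per library. Cbr3 stands at 31.3% to 54.3% of its top level at 5 to 9 UMIs, where Cyp3a11 stands at 0.372% to 1.47%.

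Many members were dividing. At least 2 summed UMIs of Mki67 and Top2a were found in 191, 399 and 308 members (43.6%, 49% and 46.6%). After thinning to 5000 UMIs the shares were 29.2% (25 to 33.8), 33.9% (30.6 to 37.3) and 31% (27.4 to 34.7), close to the 31.1%, 34.5% and 30.6% of all other kept cells. Apolipoprotein-high cells were at 10.6% (6.78 to 15.6), 6.65% (4.5 to 9.41) and 6.71% (4.57 to 9.44). Ileal-type cells were at 7.72% (4.84 to 11.6), 15.2% (5.11 to 31.9) and 5% (0.611 to 16.9), the last 2 values from few cells. The Chgb-mCherry interval of that class overlapped the one of members. These intervals cover the counting error of cells within 1 library and are no test. Thinning here changed only the Mki67 and Top2a counts, since members were still those chosen at full depth. A deeper cell meets the rule at a lower marker CPM, and cycling members were the deeper ones. The part of this in the shares was not tested. Free RNA can add UMIs of these genes to cells of any class, and its part in these shares was not tested.

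Within members, the non-cycling cells held more of the enterocyte and marker transcripts. Ces1f was at 136, 166 and 135 CPM in non-cycling members and 39.4, 61.6 and 51 in cycling ones. Gsta1 was at 524, 588 and 542 against 126, 154 and 121. Fabp1 was at 972, 841 and 755 against 268, 244 and 195. In each of these genes every library put the non-cycling members higher. Of the 6 markers Ces2e had the lowest ratio in each library, with 1.51, 1.59 and 1.59. The highest was 3.45 for Ces1f in WT and 2.86 and 3.05 for Cyp2c66 in Chgb-mCherry and DMSO. It was 0.544, 0.682 and 0.624 for Lgr5 and 0.303, 0.322 and 0.325 for Ascl2. Fabp2, another fatty acid carrier, hardly differed, with 0.894, 0.962 and 0.988. Depth moved with this split: cycling members had medians of 26062, 21806 and 21652 UMIs and non-cycling ones 17280, 13507 and 15140. The rule asks a fixed number of UMIs, so a shallower cell needs more marker CPM to be a member, and the part of this in the ratios was not tested.

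**Figure D5:**
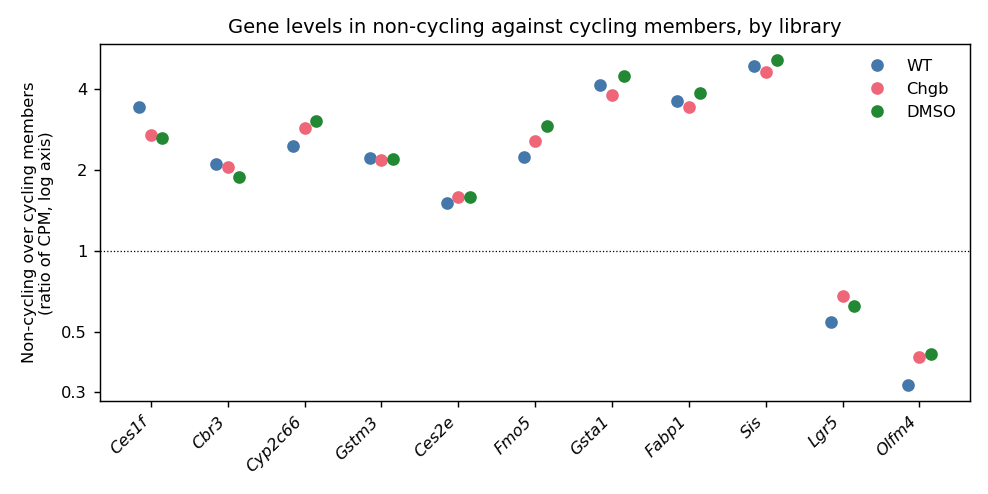
Ratio of CPM in non-cycling over cycling members (vertical axis, log axis) for the 6 markers, Gsta1, Fabp1, Sis, Lgr5 and Olfm4, one point per library; the dotted line marks equal levels. Markers and enterocyte genes lie above 1, with Ces1f at 2.65 to 3.45, and Lgr5 lies below it at 0.544 to 0.682.

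With the rule genes left out, members lay near one another. Of the 15 nearest neighbours of a member in its library, by 30 principal components of 2000 genes, 40.7%, 39.1% and 37.2% were members, who make up 5.01%, 8.48% and 7.37% of kept cells. Cells with exactly 2 markers made up 20.9%, 20% and 18.2% of these neighbours, against 7.27%, 9.74% and 9.48% of kept cells. Apolipoprotein-high cells made up 6.21%, 9.6% and 10.3%, against 3.3%, 5.57% and 6.42% of kept cells. Stem cells made up 6.82%, 6.41% and 7.15%, below their 14.9%, 14.7% and 18.2% of kept cells. Neighbours of a member were thus most often members or cells just outside the rule. Genes such as Cbr1 and Gsta3 that go with the markers stayed among the 2000, so this is a description. Members and cells with exactly 2 markers were also deeper than cells with fewer markers, and the part of depth was not tested.

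The genes most like the summed markers were sought over the 8151, 9040 and 8350 kept cells under both caps, which within each set share a library and differ in depth. Across 7986 genes the highest mean Spearman rho, 0.48, belonged to Prap1, a secreted protein of the intestinal epithelium. Cbr1 followed with 0.39, Dbi, which binds acyl-CoA, with 0.38, Gsta3 with 0.37, Mgst1, a microsomal glutathione transferase, with 0.36, and Gsta1 with 0.36. Phgr1 and Fth1, the ferritin heavy chain, were also at 0.36, and Dmbt1 and Ces2a at 0.35. Cbr1, Gsta3, Mgst1, Gsta1 and Ces2a are detoxification enzymes, as the markers are. The share of such enzymes among the 7986 genes was not counted. The lowest were Selenom (-0.29), Hepacam2 (-0.28) and Cd24a (-0.26).

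The members of the 3 control libraries resembled each other in the markers. From WT to Chgb-mCherry the ratio of CPM was 1.24 for Ces1f (95% counting interval 1.14 to 1.36), 0.883 for Cbr3 (0.839 to 0.93), 1 for Cyp2c66 (0.892 to 1.13) and 1.15 for Gstm3 (1.09 to 1.22). From Chgb-mCherry to DMSO it was 0.853 for Ces1f (0.788 to 0.922). None of the 6 markers differed 2-fold between WT and Chgb-mCherry or between Chgb-mCherry and DMSO. Over all genes, 45 of 10436 were at least 2-fold higher in Chgb-mCherry than in WT members (0.431%) and 88 lower (0.843%). Between DMSO and Chgb-mCherry, 27 of 10569 were higher (0.255%) and 29 lower (0.274%). Of the detoxification lists, 3 genes were called between WT and Chgb-mCherry, Cyp3a13 (-1.08 on the log2 scale), Hsd17b2 (-1.05) and Ugt2b5 (1.10), and none between Chgb-mCherry and DMSO.

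Part of these calls came from single cells. The gut hormone gene Nts had 3844 UMIs in WT members, of which 98.9% lay in 1 cell, and Pyy had 96.7% of its WT UMIs in 1 cell. Cck, also a hormone, had 51% of its DMSO UMIs in 1 cell, and without members rich in secretory transcripts it was at 10.6, 12.4 and 9.32 CPM. Leaving out such members gave 50 higher and 49 lower genes between WT and Chgb-mCherry, of which 36 and 43 were among those called before, and 9 higher and 18 lower between Chgb-mCherry and DMSO. With a filter of 10 UMIs the counts were 296 and 331, and 240 and 168. Some differences did not rest on 1 cell. Phgr1 was at 1505, 787 and 749 CPM and found in 438, 815 and 659 members. Casc4 was at 3.09, 9.08 and 10.3 and found in 25, 118 and 107. Hoxb9, a homeobox gene, was at 13.2, 1.52 and 0.401 in 46, 7 and 3 members with a UMI, and at 8.64, 0.83 and 0.424 without those rich in secretory transcripts. Eif3j1 was at 18.9, 54.9 and 63.3 while its near-identical copy Eif3j2 was at 23.2, 1.13 and 0.801, a pair that read counting can split either way. In these genes WT stood apart from both reporter libraries, and genotype and library cannot be told apart.

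The 31 Isx-9 cells that met the rule were deeper than DMSO members, with a median of 23853 UMIs against 17253, and a deeper cell can meet the rule at a lower marker CPM. The markers are therefore a description. Cbr3 was at 190 CPM against 216 in DMSO (ratio 0.879, 0.751 to 1.02) and Cyp2c66 at 41.7 against 50.6 (0.824, 0.581 to 1.14), intervals that include 1. Ces1f was at 37.4 against 87 (0.43, 0.298 to 0.602), Gstm3 at 65.2 against 236 (0.276, 0.211 to 0.356) and Fmo5 at 23.5 against 87.4 (0.269, 0.168 to 0.41). Gsta1 was at 19.2 against 300 (0.0641, 0.0379 to 0.101), Ces2a at 35.3 against 296 (0.119, 0.082 to 0.168) and Rbp2 at 15 against 179. Gsta1 and Ces2a were each found in 5 of the 31 cells, with 38.9% and 72.7% of their UMIs in 1 cell. Other genes of the same lists were higher, such as Cyp2c55 at 179 against 34.2, Ces1g at 23.5 against 5.13, Hsd17b2, a steroid dehydrogenase, at 84.4 against 9.86, and Alpi at 70.6 against 41.2. By list, higher and lower genes numbered 1 and 2 of 6 carboxylesterases (median -0.65), 1 and 4 of 17 P450 genes (-0.38), 1 and 5 of 20 carbonyl, alcohol and aldehyde enzymes (-0.40), 0 and 2 of 6 oxidases (0.13), 2 and 2 of 20 glutathione transferases (-0.11), 0 and 3 of 18 glucuronosyl and sulfotransferases (-0.20) and 0 and 1 of 7 exporters (-0.25), with a median of -0.07 over all genes. Over all genes 802 of 9745 were at least 2-fold higher (8.23%) and 754 lower (7.74%), a comparison of 31 cells of 1 library with 661 of another. Without members rich in secretory transcripts the counts were 720 and 834.

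Genes of other programmes were higher in these cells. Igfbp2, a growth factor binding protein, was at 532 CPM against 2.48 (ratio 214, 149 to 319). Neurog3, the factor that commits cells to the endocrine lineage, was at 109 against 2 (54.4, 34.9 to 88). It was found in 7 of the 31 cells, and 72% of its DMSO UMIs lay in 1 member. Without cells rich in secretory transcripts Neurog3 was at 72.6 against 1.95. Of the enteroendocrine list 10 of 16 genes were higher and 4 lower, while of the proliferation list 0 of 30 were higher and 13 lower. Enteroendocrine markers summed to 1302 CPM in the 31 cells and to 13955 in the other Isx-9 cells, of which 62.1% had at least 10 such UMIs. In the 31 cells 1 cell held 805 of these UMIs. Chgb had 82.8% of its UMIs in 1 of the 31 cells and was at 651 CPM, or 127 without those rich in secretory transcripts. Without the rule, all other Isx-9 cells held Ces1f at 0.939, Cyp2c66 at 0.143 and Cbr3 at 36.5 CPM. Scrublet marked 831 Isx-9 cells (8.3%), 2 of the 31 among them, and without marked cells 712 genes were higher and 918 lower. After thinning to 5000 UMIs none of the 30 that were deep enough met the rule. The part of free RNA was not tested, and 2 of the 31 cells had at least 100 UMIs of a secretory list.

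Bulk RNA-seq of sorted stem cells was the one replicated measurement of these genes, and one that the rule did not use. In bulk samples, fewer cells of a type and less RNA per cell cannot be told apart. At 6 hours of Isx-9, 4755 of 17418 tested genes rose (27.3%) and 3488 fell (20%) by edgeR's quasi-likelihood test with Benjamini-Hochberg adjustment. Without the first Isx-9 library 2062 fell. None of the 6 markers passed it. Ces1f was at 14.1 and 27.3 CPM (here counts, TMM-scaled) in the DMSO libraries and 9.57 and 23 in the Isx-9 libraries, with a log2 difference of -0.34 (SE 0.36, adjusted p = 0.472). Cbr3 was at 30.9 and 34.5 against 22.5 and 36 (-0.16, SE 0.19, adjusted p = 0.515), and Gstm3 at 139 and 195 against 128 and 193 (-0.06, SE 0.18, adjusted p = 0.82). In all 3 genes the groups overlapped. Cyp2c66 was at 2.75 and 8.71 against 3.79 and 11.8 (0.45, SE 0.54, adjusted p = 0.529). Ces2e was at 109 and 123 against 113 and 161 (0.24, SE 0.14, adjusted p = 0.187), and Fmo5 at 7.7 and 11.4 against 12.7 and 12.4 (0.40, SE 0.22, adjusted p = 0.17), the only marker whose groups did not overlap. Each of these 6 depended on single libraries. Leaving out the second Isx-9 library gave -1.09 for Ces1f and -0.52 for Cbr3, past the threshold, and leaving out the first gave 0.48 for Ces2e. Leaving out the second DMSO library gave 1.50 for Cyp2c66 and 0.69 for Fmo5, also past it.

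Over the 7 detoxification lists 118 of 130 genes were tested, of which 36 rose and 24 fell, with a median log2 difference of 0.08 against 0.02 over all genes. Both shares are near those of all genes, and the lists parted. Of 9 oxidases tested 6 rose and 0 fell (median 1.12). Fmo1, a flavin monooxygenase, rose from 2.21 and 3.86 CPM to 27.2 and 28.1 (log2 3.19, SE 0.24, adjusted p = 1.84e-06). Fmo4 rose from 5.6 and 5.34 to 20.5 and 16.8, and Maob, a monoamine oxidase, from 11.9 and 13.2 to 30.3 and 32.3. Fmo2 rose from 3 and 1 counts to 45 and 33. Fmo1, Fmo2 and Fmo4 thus passed the test, and the marker Fmo5 of the same family did not. Of 11 exporters 6 rose and 1 fell (median 0.47). Abcb1b, a P-glycoprotein efflux pump, rose from 0.807 and 0.606 CPM to 15.2 and 9.83 (log2 4.13, SE 0.36, adjusted p = 6.6e-06), and Abcc4, an exporter of organic anions, from 57.5 and 44 to 101 and 97.9.

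P450 genes had 9 of 22 that rose and 0 that fell (median 0.27). Cyp27a1, a mitochondrial sterol hydroxylase, rose from 3.77 and 3.97 CPM to 17.4 and 16 (log2 2.11, SE 0.21), and Cyp4b1 from 10.3 and 8.65 to 23.8 and 19.9. Of 8 carboxylesterases 3 rose, Ces1g, Ces2g and Ces2c. Ces2g rose from 49.5 and 52.8 to 66.1 and 83, while Ces2a, at 27.4 and 45 against 24.1 and 41.2, did not pass. The call of Ces2c was lost under DESeq2 and that of Ces1g without the second Isx-9 library. Of 22 glucuronosyl and sulfotransferases 5 rose and 3 fell (median 0.09). Sult2b1, a sterol sulfotransferase, rose from 3.71 and 4.3 to 18.2 and 21.1, and Sult1c2 from 4.63 and 6.23 to 9.17 and 15.1, a call that was lost without the second Isx-9 library.

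The carbonyl enzymes and glutathione transferases leaned down. Of 24 carbonyl, alcohol and aldehyde enzymes 5 rose and 11 fell (median -0.26). Aldh1b1, a mitochondrial aldehyde dehydrogenase, fell from 954 and 953 CPM to 518 and 614 (log2 -0.75, SE 0.09), and Dhrs3, a retinal reductase, from 17.2 and 21 to 8.82 and 10.4. Of 22 glutathione transferases 2 rose and 9 fell (median -0.05). Cbr1 fell from 133 and 131 to 91.3 and 116 (log2 -0.35, SE 0.11) and Gsta3 from 84 and 76.8 to 50.2 and 61.5 (-0.53, SE 0.11), both named above among the genes most like the markers. Gsta1, at 7.7 and 14.8 against 3.59 and 8.33, did not pass. Of 18 NRF2 targets 3 rose and 11 fell (median -0.28), and of 29 receptors and factors 2 rose and 13 fell (median -0.18). Hnf4a fell from 1155 and 1173 to 800 and 866, and Nr1i2 from 50.8 and 51.4 to 32 and 30.4.

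Other programmes moved in the same bulk libraries. All 6 of 6 tested stromal and endothelial genes rose (median 2.81), 12 of 17 injury-like and fetal-like genes rose (0.75), 18 of 30 proliferation genes fell (-0.23) and 12 of 20 stem cell markers fell (-0.28). Lgr5 itself, at 378 and 341 CPM against 312 and 320, did not pass. The part of these shifts in the detoxification results was not tested.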

How the data were processed

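The single-cell matrices hold UMI counts per gene and cell as the authors deposited them, without normalization. For single cells the submitters' processing notes name Cell Ranger 3.1.0 and Seurat 3.1.5, without their roles. The bulk counts per gene are also as deposited. Those notes name Trim Galore 0.6.4, HTSeq 0.12.4 and an unversioned HISAT2 with the build GRCm38. The bulk kit does not mark strand, so antisense overlaps cannot be resolved. The 6 ATAC-seq samples were not used here.

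UMIs were summed per library and cell class and scaled to CPM, the UMIs of a gene per 1000000 (Python 3.11.15, numpy 2.4.6, scipy 1.17.1). Genes were compared when both classes together held at least 50 UMIs in every library. A gene was called when its level differed at least 2-fold the same way in all 3 libraries, with 0 UMIs set to a floor of 3. Rule genes were left out of the calls, as were Lgr5, Olfm4, Mki67 and Top2a against stem cells. Between libraries the 50 UMIs were taken over both. Shares carry exact binomial 95% intervals and ratios exact Poisson-based ones. UMIs, intervals and floors give counting error only. Doublets were sought with Scrublet in scanpy 1.11.5.

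Bulk libraries held 18909542 to 19487264 counts. They were filtered with filterByExpr, scaled by TMM and tested with edgeR 4.0.16 in R 4.3.3 (quasi-likelihood F test, 2 against 2 libraries, 2-sided), with p-values adjusted over all 17418 genes and a threshold of 0.05. The labels do not say that replicates came from separate cultures, so p-values measure only the spread between libraries. On simulated data for this comparison, with 200 of 17418 genes changed, the test recovered 22.5% of 1.5-fold, 80% of 2-fold and 96% of 4-fold changes and made 2, 9 and 11 false calls. The simulation gave every gene the same dispersion, a measure of spread between libraries, and changed far fewer genes than were called here. These rates need not hold for single genes such as the markers.

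The members, the gene lists and the comparisons were chosen with earlier results of these data known. Named genes were the 12 rule genes, the 10 highest and 10 lowest called genes per class comparison by the smallest difference of the 3 libraries, up to 4 called genes of each list by median difference, the 8 highest and 8 lowest between libraries, up to 4 passing genes of each detoxification list in bulk and the 10 genes most like the markers. Not every gene so named is printed, and level checks of enterocyte, stem and regulator genes, the genes of the apolipoprotein and cycling profiles, and Gsta3, Cbr1, Cyp2c65, Akr1b8 and Sult1c2 in the apolipoprotein-high comparison, were added after their values were seen. Alternatives were other cuts of the rule, thinning, scaling and count filters, leaving out libraries, DESeq2 1.42.0, a replicate block and, chosen after seeing the data, leaving out cells rich in secretory transcripts.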

Additional observations from a re-analysis of the deposited data

How the results depend on the processing

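Of 168 alternative values 119 kept their direction and side of the threshold or moved little. The tally includes leaving out Scrublet doublets. In the control libraries that removed only 1, 0 and 0 cells, so values there could hardly change. The share of members moved with the rule, given for WT, Chgb-mCherry, DMSO and Isx-9: 2.62%, 4.14%, 3.39% and 0.0799% with 3 UMIs per marker, 12.3%, 18.2%, 16.8% and 2.43% with 2 markers, 2.23%, 3.84%, 3.16% and 0.0499% with 4 markers, and 1.4%, 2.93%, 2.28% and 0% after thinning. An apolipoprotein cap of 10 gave 4.35%, 7.04% and 6.02% in the 3 controls, and leaving out secretory-rich cells, chosen after seeing the data, 5.71%, 9.5%, 8.22% and 0.508%. Isx-9 stayed lowest throughout.

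Genes higher than in apolipoprotein-high cells numbered 204 under median-ratio scaling and 373 to 811 with a library left out. Leaving out a library gave 540 to 714 genes higher than in ileal-type cells. Genes lower than in stem cells numbered 275 with a 10-UMI filter. That filter gave 296 and 331 genes higher and lower between Chgb-mCherry and WT, 240 and 168 between DMSO and Chgb-mCherry, and 2137 higher in Isx-9, and without secretory-rich cells 49 were lower in Chgb-mCherry and 9 and 18 differed for DMSO. Apart from the filters and left-out libraries, whose construction changes the genes or samples tested, the cause was not tested.

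In bulk, genes that fell numbered 2062 to 3090 and genes that rose 3599 to 4536 with a library left out, where the lone library is assumed to vary like the others. The markers then ranged from -1.09 to 0.20 (Ces1f, with 0.16), -0.52 to 0.15 (Cbr3), -0.57 to 1.50 (Cyp2c66, with -0.16), -0.35 to 0.21 (Gstm3, with 0.20), -0.02 to 0.48 (Ces2e) and 0.14 to 0.69 (Fmo5). Of the 60 detoxification calls, 8 were lost under DESeq2, 21 without a low-count filter and 12 to 18 without a library. Deviations of same-numbered libraries from their group means had a correlation of 0.01 over all genes. With 2 libraries per group both replicate numbers must give the same value, and it cannot settle whether the numbers pair the libraries. Every marker except Fmo5 stood higher in the second library under both agents. With a replicate block 4723 genes rose and 3408 fell, 3 detoxification calls were lost, and no marker passed.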

Other observations

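Genes of mucosal defence differed by gene. Dmbt1, a secreted scavenger receptor-like protein, was at 255, 281 and 259 CPM in the members of WT, Chgb-mCherry and DMSO, 222, 207 and 178 in apolipoprotein-high cells, 23.5, 52.1 and 46.8 in stem cells and 34.8, 74.1 and 43.9 in ileal-type cells. Members thus held the highest level of the 4 classes in all 3 libraries. Reg3b, an antimicrobial lectin, went the other way, at 7.78, 12.4 and 0.641 in members against 954, 107 and 1087 in ileal-type cells. Of its UMIs in members, 64.4%, 77% and 62.5% lay in 1 cell of each library. Both genes are in the list of lower villus genes, most of which were not high in members. Of 12 kept, 7 were lower and 0 higher than in apolipoprotein-high cells. Against ileal-type cells 6 were lower and 1 higher.

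Some stress response genes were above the stem level. Of 14 genes in the list of endoplasmic reticulum stress, 3 were at least 2-fold higher than in stem cells in all 3 libraries and 0 lower (median 0.31 on the log2 scale). Chac1, which degrades glutathione, was at 16.2, 14.2 and 10.5 CPM in members and 4.05, 3.43 and 3.32 in stem cells. Ddit3 was at 41.8, 31.5 and 40 against 11.2, 12.5 and 12.3, and Trib3, its target, at 24.2, 20.3 and 26 against 6.59, 6.63 and 7.24. Apolipoprotein-high cells held these genes at like or higher levels, with Trib3 at 25.8, 26.7 and 29.9, and none of the 14 genes was called there.

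Retinoid genes differed by gene. Of 7 kept, 3 were higher in members than in stem cells and 0 lower (median 0.47). Rdh7, a retinol dehydrogenase, was at 10.8, 12.1 and 13.4 CPM in members, 3.4, 4.05 and 4.06 in stem cells and 104, 110 and 119 in apolipoprotein-high cells. Dhrs3, which reduces retinal back to retinol, spanned less, at 36, 32.9 and 35.3 in members, 27.3, 29.8 and 27.2 in stem cells and 55.1, 55.6 and 58.5 in apolipoprotein-high cells. Iron genes of the proximal intestine were present too. Slc40a1, the iron exporter, was at 16.3, 7.09 and 6.73 in members and 1.8, 1.35 and 1.29 in stem cells, and Cybrd1, which reduces dietary iron, at 9.91, 10.5 and 5.77 against 1.55, 3.2 and 1.57.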
